A study of Mus musculus with 4 samples.

Results

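The 9 genes described here encode ligands and receptors of the vascular endothelial growth factor (VEGF) family, taken from a table of 55487 genes: the ligands Vegfa, Vegfb, Vegfc and Pgf, the receptor tyrosine kinases Kdr, Flt1 and Flt4, and the neuropilin co-receptors Nrp1 and Nrp2. They were chosen by gene symbol, and all 9 passed the filter on low counts, among 14932 genes tested. That filter kept a gene when either day passed it, and Kdr, Vegfc and Nrp1 passed through d4 alone. RNA was sequenced from wild-type E14-Tg2a cells, a line of mouse embryonic stem cells (mESCs) in long use, with 2 libraries at d2 and 2 at d4 of differentiation, from separate differentiation experiments. The d2 cells were embryoid bodies kept for 48 h in serum-free medium, without added growth factor. The d4 cells came from such bodies that were dissociated and left to reaggregate for 40 h with human Activin A (8 ng/ml), human BMP4 (0.5 ng/ml) and human VEGF (5 ng/ml). Day, dissociation and the 3 factors changed together, so their parts in a difference cannot be told apart, and the whole aggregates were sequenced without sorting. The added VEGF was protein, and the Vegfa counts are RNA from the cells' own gene. The question put to the family was which of its ligands, receptors and co-receptors changed in this interval, when the cells pass from early embryoid bodies to cardiogenic mesoderm.

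VEGF-A is secreted and binds KDR (also FLK1 or VEGFR2), the kinase that carries most of its signal for endothelial growth, survival and movement, and FLT1 (VEGFR1), which binds it more tightly but signals weakly and, as a secreted form, holds it away from KDR. VEGF-B and placental growth factor (PGF) bind FLT1 alone of these kinases and can bind neuropilin-1, and VEGF-C binds FLT4 (VEGFR3), the receptor best known from lymphatic vessels, and after processing also KDR. Neuropilins lack a kinase of their own and present VEGF to these receptors, and they also receive class 3 semaphorins together with plexins. In the mouse embryo Kdr marks the mesoderm from which endothelium and primitive blood arise, and its loss leaves the embryo without either.

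At d4, 7 of the 9 genes were higher than at d2 and 2 did not pass the test. The level of Kdr went from near the detection limit to the highest of the 9, Nrp1 from 1 and 2 counts to 2131 and 4490, and Vegfa, Vegfc, Nrp2, Flt1 and Flt4 rose by smaller factors. Vegfb and Pgf were the 2 that did not pass. The test was edgeR's quasi-likelihood test at a Benjamini-Hochberg adjusted p under 0.01, and it called 12.9% of all genes tested higher and 11.3% lower at d4. Levels are given in CPM, a library's counts scaled to a common total. For 8 of the 9 genes both d4 libraries lay above both d2 libraries, as they did for 35.8% of the genes tested. Library totals were 11397439 to 16851485 counts, the median log2 fold change over all genes tested was -0.03, and the biological coefficient of variation was 23.6%. An exact permutation of 2 against 2 libraries has too few arrangements to reach the threshold, so all adjusted p-values rest on a spread estimated over genes. The calls depended on both d2 libraries: without d2 replicate 1 or d2 replicate 2, edgeR called 0 of the 9 members and 0 genes in all, with lowest adjusted p = 0.0189 and 0.0180; an unadjusted p under 0.05 was still reached by 6257 and 5973 genes. At that unadjusted p, 8 and 7 members were still higher, and DESeq2 called 7 members without either library. In bulk RNA, more cells of a type and more RNA per cell cannot be told apart.

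**Figure D1:**
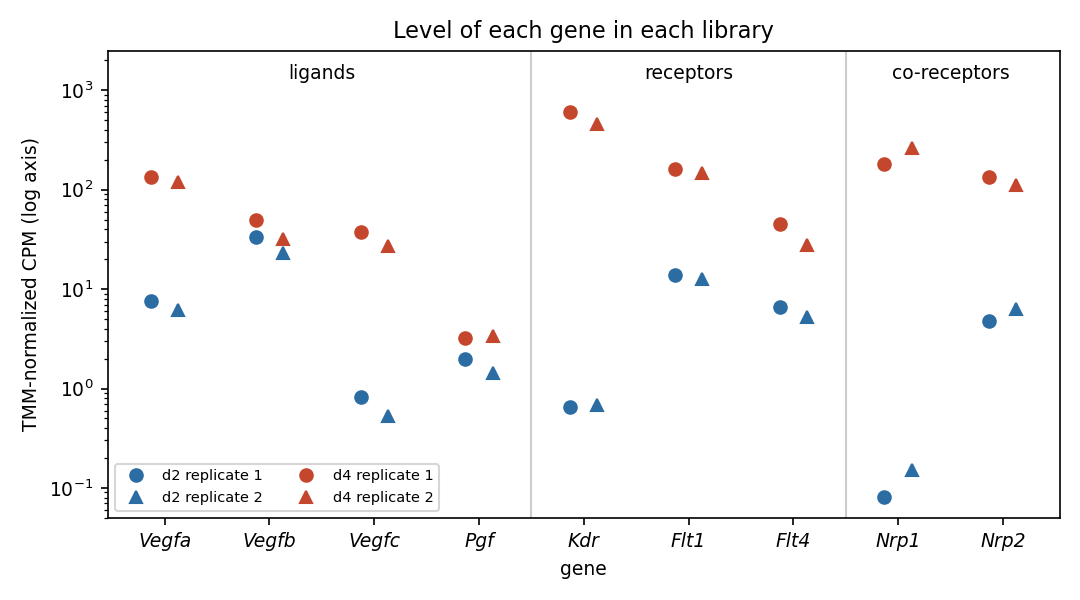
Each point is 1 library, with the gene on the x axis and TMM-normalized CPM on a log y axis; blue is d2, red is d4, circles are replicate 1 and triangles replicate 2. Kdr and Nrp1 span the widest distance between the days, and of the 9 genes only Vegfb has libraries of d2 and d4 that overlap.

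The stretches upstream of the start sites of Kdr, Flt1, Vegfa and Vegfb are shown because they set the receptor that gained most, another receptor and Vegfa beside Vegfb, the ligand with the highest level at d2 and the smallest difference between the days. They are the 250 bases before the RefSeq start on the GRCm38.p6 assembly, written 5′ to 3′ along the gene, and capitals mark matches to the motifs named after them.
Kdr, chr5:75978456-75978705, minus strand: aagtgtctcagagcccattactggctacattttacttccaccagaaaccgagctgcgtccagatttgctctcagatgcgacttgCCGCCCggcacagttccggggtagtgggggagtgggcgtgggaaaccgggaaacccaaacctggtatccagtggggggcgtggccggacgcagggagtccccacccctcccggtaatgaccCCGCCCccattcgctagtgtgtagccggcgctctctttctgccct
Flt1, chr5:147726012-147726261, minus strand: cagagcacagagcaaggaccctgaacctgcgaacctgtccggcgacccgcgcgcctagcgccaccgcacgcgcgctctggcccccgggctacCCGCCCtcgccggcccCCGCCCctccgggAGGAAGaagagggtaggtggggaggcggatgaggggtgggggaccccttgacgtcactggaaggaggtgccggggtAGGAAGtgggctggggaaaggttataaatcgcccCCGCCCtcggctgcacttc
Vegfa, chr17:46032378-46032627, minus strand: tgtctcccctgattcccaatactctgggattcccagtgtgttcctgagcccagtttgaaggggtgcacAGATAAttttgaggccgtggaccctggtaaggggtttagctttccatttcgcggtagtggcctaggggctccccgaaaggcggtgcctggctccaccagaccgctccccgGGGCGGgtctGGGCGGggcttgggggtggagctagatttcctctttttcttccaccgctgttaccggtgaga
Vegfb, chr19:6987652-6987901, minus strand: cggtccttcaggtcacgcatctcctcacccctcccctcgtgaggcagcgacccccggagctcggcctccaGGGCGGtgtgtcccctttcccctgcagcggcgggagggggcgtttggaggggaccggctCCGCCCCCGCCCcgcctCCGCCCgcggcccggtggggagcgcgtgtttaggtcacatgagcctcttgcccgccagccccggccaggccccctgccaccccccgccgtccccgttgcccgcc
The motifs were searched on both strands: AGATAA for GATA factors, AGGAAG for ETS factors, TGANTCA for AP-1, GTAAACA for forkhead factors, ACGTG for hypoxia-inducible factors and GGGCGG for SP factors. GGGCGG was found before a RefSeq start of all 9 members, counted by gene over their 11 windows, though a further Pgf window had no match. Counted by window, it was in 10756 of the 32851 RefSeq windows of this length (32.7%). By the GENCODE positions used here, the windows of Nrp1, Flt4 and Pgf lay inside the gene, and that of Nrp2 in part. GGGCGG stood 2 times in the Kdr window, 3 in the Flt1 window and 4 in the Vegfb window. The members' windows held 59.2% to 76.4% G and C, against a median of 52.4% over all windows. AGGAAG stood 2 times upstream of Flt1, 129 and 53 bases before the start, and once in the Nrp1 window, beside 29.5% of all windows. AGATAA stood once upstream of Vegfa, 182 bases before the start shown, beside 9.99% of all windows. ACGTG occurred in a further Vegfa window, at a start inside the gene, beside 16.6% of all windows. The AP-1 and forkhead letters, present in 6.75% and 3.17% of all windows, were in none of the members' windows. These matches describe letters, not binding, and a window without a match says nothing of a factor's sites elsewhere.

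Of the ligands, Vegfa rose and became the most abundant or joint most abundant of its role. Vegfa (ENSMUSG00000023951.18, chr17:46016993-46032369, minus strand, GRCm38) had 7.52 and 6.23 CPM at d2, and the d4 libraries had 133 and 121 CPM. Both d4 libraries were far above both d2 libraries, and the libraries of a day lay close together. The mean was 18.5 times higher at d4, with a log2 fold change of 4.21 ± 0.23 (SE) and an edgeR adjusted p = 6.64e-05. Its 13 annotated transcripts, which include the isoforms that differ in matrix binding, were counted as 1 gene. Vegfc (chr8:54077606-54187096, plus strand) was counted 10 and 7 times at d2, or 0.818 and 0.532 CPM, and 37.7 and 27.2 CPM at d4. It thus went from barely counted to clearly expressed, 48.1 times higher in the mean (log2 fold change 5.57 ± 0.36, edgeR adjusted p = 9.60e-05).

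Vegfb (chr19:6982473-6987651, minus strand) stood at 33.1 and 22.9 CPM at d2 and at 50.0 and 32.1 CPM at d4. The lower d4 library lay just under the higher d2 library. The log2 fold change was 0.55 ± 0.30 (edgeR adjusted p = 0.194), a difference smaller than 2 SE. Pgf (chr12:85166635-85177790, minus strand) was low on both days, with 1.96 and 1.44 CPM at d2 and 3.22 and 3.41 CPM at d4. Its libraries did not overlap between days, but its log2 fold change of 0.96 ± 0.33 did not pass (edgeR adjusted p = 0.0593). Vegfd, the other lymphatic ligand and no member here, had 36 counts in each d2 library and 13 and 19 at d4, with a log2 fold change of -1.35 ± 0.33 that missed the threshold as well (edgeR adjusted p = 0.0180). At 1.18 CPM per kilobase at d2 and 0.461 at d4, Vegfd is not counted among the 4 ligands in the shares that follow.

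Among the receptors, Kdr showed the largest difference. Kdr (chr5:75932827-75978458, minus strand) was counted 8 and 9 times at d2, or 0.654 and 0.683 CPM, against 7105 and 7864 times at d4, or 601 and 463 CPM. The d2 libraries were nearly equal, and the d4 libraries differed from each other far less than from d2. The mean was 795 times higher at d4 (log2 fold change 9.62 ± 0.32, edgeR adjusted p = 3.96e-05), and by that fold change Kdr was number 44 of the 14932 genes tested. Flt1 (chr5:147561604-147726011, minus strand) was already expressed at d2, with 13.9 and 12.7 CPM, and reached 162 and 146 CPM at d4. Libraries of the same day agreed closely, and the mean was 11.6 times higher (log2 fold change 3.53 ± 0.21, edgeR adjusted p = 8.06e-05). The membrane-bound and secreted forms of FLT1 come from the same gene, and these counts do not separate them. Flt4 (chr11:49609263-49652739, plus strand) had 6.62 and 5.24 CPM at d2 and 45.0 and 27.8 CPM at d4. It showed the smallest rise among the 7 genes called and a wide gap between its d4 libraries (6.14 times higher in the mean, log2 fold change 2.62 ± 0.32, edgeR adjusted p = 0.000884).

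Both neuropilins rose. Nrp1 (chr8:128358604-128503363, plus strand) was counted 1 and 2 times at d2, against 2131 and 4490 times at d4, or 180.4 and 264 CPM. The ratio of d4 to d2 was 1945, with an exact 95% counting interval of 665 to 9436, since so few reads stand for d2. That interval covers counting error only. The fitted log2 fold change was 10.77 ± 0.44 (edgeR adjusted p = 3.96e-05), number 21 of all genes tested. Nrp2 (chr1:62703285-62818695, plus strand) started from 4.82 and 6.38 CPM at d2 and stood at 135 and 111 CPM at d4. Its groups were far apart, 21.9 times in the mean (log2 fold change 4.45 ± 0.26, edgeR adjusted p = 7.48e-05).

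**Figure D2:**
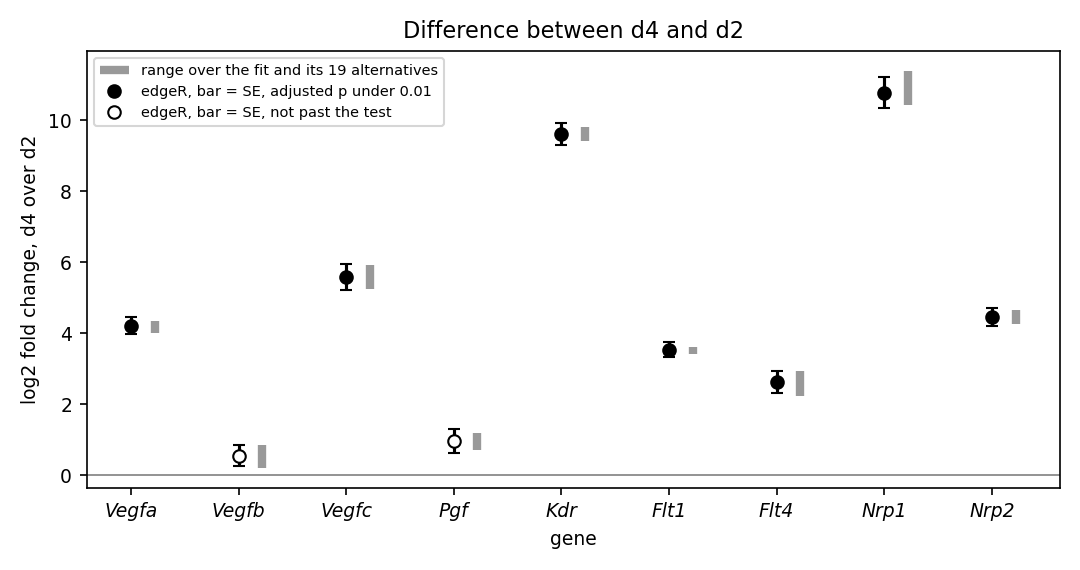
Points are edgeR log2 fold changes of d4 over d2 for each gene on the x axis, with bars of 1 SE; filled points passed an adjusted p under 0.01, open points did not, and grey bars span the fit and its 19 alternatives. Nrp1 and Kdr lie near 10.77 and 9.62, Vegfb and Pgf lie under 1, and the sign was positive for all 9 genes in each of these settings.

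The makeup of each role was compared per kilobase of the gene's merged exons, a scale on which genes of different length can be set side by side. Of the summed level of the 4 ligands at d2, Vegfb held 87.5% ± 0.955 (SD, n = 2), Vegfa 8.17% ± 0.939, Pgf 2.95% ± 0.0928 and Vegfc 1.37% ± 0.0763. At d4 Vegfa held 43.1% ± 5.03, Vegfb 36.3% ± 4.61, Vegfc 19.0% ± 0.796 and Pgf 1.68% ± 0.380. The ratio of Vegfa to Vegfb was 0.0851 and 0.102 at d2, against 0.998 and 1.41 at d4. The RNA of the ligands thus went from mostly Vegfb to shares of Vegfa and Vegfb that did not separate, with Vegfc as the third.

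The receptors changed order. At d2 Flt1 held 55.4% ± 2.03 of the receptor level, Flt4 40.4% ± 2.59 and Kdr 4.19% ± 0.554. At d4 Kdr held 78.8% ± 0.626, Flt1 15.4% ± 1.57 and Flt4 5.84% ± 0.946. The ratio of Kdr to Flt1 per kilobase was 0.0704 and 0.0806 at d2, against 5.55 and 4.75 at d4, so it lay below 1 on the earlier day and above 1 on the later in all 4 libraries. The neuropilins crossed as well: Nrp1 held 2.41% ± 0.559 of their sum at d2, a share that rests on 3 reads, and 68.0% ± 8.84 at d4. The summed receptor level per kilobase was 1.78 ± 0.181 CPM at d2 and 74.7 ± 13.2 CPM at d4. The summed ligand level was 19.9 ± 4.91 CPM at d2 and 69.6 ± 12.9 CPM at d4.

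**Figure D3:**
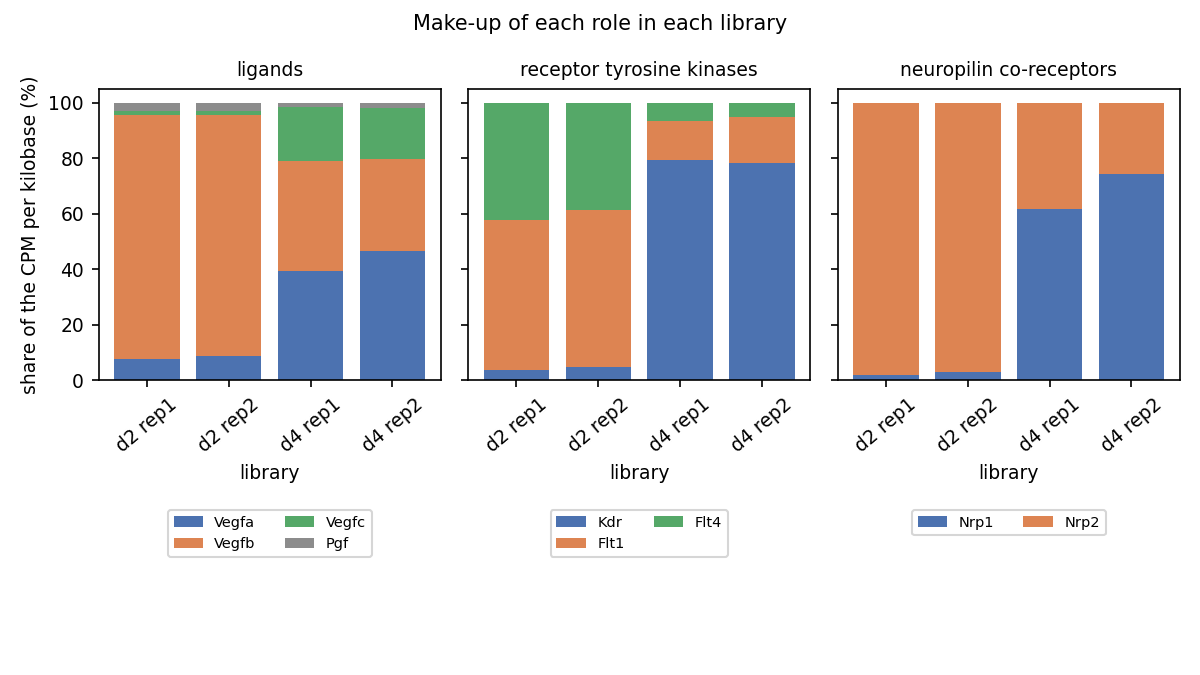
Stacked bars give the percentage of the CPM per kilobase within the ligands, the receptor tyrosine kinases and the neuropilins on the y axis, with 1 bar for each of the 4 libraries on the x axis. Vegfb, Flt1 with Flt4, and Nrp2 fill the d2 bars, and Kdr fills 79.2% and 78.3% of the d4 receptor bars.

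Ordered by level per kilobase at d2, Vegfb stood first at 17.5 ± 4.49 CPM (SD, n = 2), Vegfa followed at 1.60 ± 0.214, Flt1 at 0.984 ± 0.0640, Flt4 at 0.721 ± 0.119, Pgf at 0.587 ± 0.127, Nrp2 at 0.473 ± 0.0928, Vegfc at 0.275 ± 0.0826, Kdr at 0.0741 ± 0.00228 and Nrp1 at 0.0119 ± 0.00506. Flt4 and Pgf, and Pgf and Nrp2, overlapped in their 2 libraries and were not separated, and the other neighbours did not overlap. At d4 the order was Kdr at 58.9 ± 10.9, Vegfa at 29.6 ± 2.07, Vegfb at 25.6 ± 7.91, Nrp1 at 22.7 ± 6.06, Vegfc at 13.3 ± 3.01, Flt1 at 11.4 ± 0.853, Nrp2 at 10.4 ± 1.46, Flt4 at 4.43 ± 1.48 and Pgf at 1.14 ± 0.0478. Vegfa, Vegfb and Nrp1 overlapped in sequence, as did Vegfc, Flt1 and Nrp2. Among the genes tested, the mean level of Kdr per kilobase stood at percentile 3.91 at d2 and at percentile 95.0 at d4, and that of Vegfb at 79.5 and 86.2. Genes low at d2 were kept only if they passed the filter at d4, so a low d2 percentile partly follows from the filter. With the length of the longest transcript in place of the merged exons, Nrp1 took second place at d4 with 61.0 CPM per kilobase and Vegfc fell to seventh with 13.3, while Kdr stayed first with 89.8 and the order of the receptors was unchanged on either day.

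Replicates of d4 differed more for some members than for others. Nrp1 was higher in d4 replicate 2 than in replicate 1 by 0.55 on the log2 scale, whereas Flt4 fell by 0.69 and Vegfb fell by 0.64. Nrp1 has the lowest GC content of the members (41.9% of its longest transcript) and Vegfb the highest (62.6%). Other members went the other way at d4: Vegfc, at 44.9%, fell by 0.47 and Pgf, at 56.3%, rose by 0.09. Over the 9 members GC content and replicate 2 minus replicate 1 had a Spearman correlation of -0.42 at d2 and -0.45 at d4. Without Nrp1 it was -0.17 at d2. Over the 14924 genes tested with a GC value, GC content and the difference of replicate 2 minus replicate 1 had a Spearman correlation of -0.71 at d2 and -0.49 at d4, across genes, which are not independent replicates. A further fit removed the GC trend of each library against the mean of all libraries. It thus also took out any GC trend between the days, not only that between replicates. In that fit the log2 fold change of Nrp1 was 10.98 ± 0.22, that of Flt4 2.45 ± 0.21 and that of Vegfb 0.33 ± 0.17. The same 7 of the 9 members were called.

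By likeness of pattern, measured as the distance between log2 CPM centred on each gene's mean over the 4 libraries among 10618 genes, Kdr had as nearest genes Cyp26a1 (0.158), which encodes a retinoic acid hydroxylase, and Stard8 (0.43). Nrp1 was nearest to Capn6 (0.90), Cdh5 (1.18), which encodes the endothelial VE-cadherin, and Cyp26a1 (1.56), distances that rest on its 3 reads at d2. Flt1 was nearest to Hes1 (0.0329), a NOTCH target, Myof (0.114) and Fam210b (0.128). Flt4 was nearest to Nol4l (0.151), Anpep (0.156) and Slc6a9 (0.195), and Nrp2 to Efna1 (0.185), Nedd9 (0.193) and Rgs4 (0.199). Among the ligands, Vegfa was nearest to Lix1l (0.0882), Tek (0.127), the angiopoietin receptor, and Spns2 (0.135). Vegfc was nearest to Gypc (0.158), Dock8 (0.192) and Fermt3 (0.242), and Vegfb to Sertad1 (0.0672), Coro2b (0.0973) and Fhl3 (0.0981). With 4 libraries in 2 days, such distances mostly compare the size of the d4 to d2 difference. Pgf was under the 5 CPM set for this comparison.

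In the rest of the pathway, 64 of 66 listed genes were tested, and 17 were higher (26.6%), 5 lower (7.81%) and 42 not past the test, beside 12.9% and 11.3% of all genes tested. Their median log2 fold change was 0.47. Sh2d2a, at 0 counts in all 4 libraries, and Sphk1, counted 1 and 0 times at d2 against 8 and 6 times at d4, were under the filter. Without d2 replicate 1 or 2, edgeR called 0 of these genes, and DESeq2 called 13 higher and 3 lower without d2 replicate 1, and 10 and 3 without d2 replicate 2.

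Of 6 genes listed with the maturation of VEGF-C and VEGF-D, 3 rose (50%), beside 12.9% of all genes tested. Pcsk5, which encodes a proprotein convertase, rose from a mean of 0.581 to 68.8 CPM (log2 fold change 6.85 ± 0.40). Adamts3, whose protease cleaves VEGF-C, rose from 1.90 to 24.9 CPM (3.71 ± 0.30). Svep1 rose from 0.312 to 20.5 CPM (5.98 ± 0.45), but it encodes a matrix protein that is not a known processing enzyme of these ligands. Furin, another convertase gene, did not pass at 1.30 ± 0.31 (edgeR adjusted p = 0.0156). Of 10 genes for receptor phosphatases and trafficking, 2 rose (20%), beside the same 12.9%. Ptprb, whose phosphatase VE-PTP acts on TIE2 and KDR, was counted 0 and 2 times at d2, against 778 and 913 times at d4, a ratio of 745 with an exact 95% counting interval of 206 to 6159. Efnb2, which encodes a ligand needed for receptor uptake, rose by a log2 fold change of 1.32 ± 0.19. Gipc1, a neuropilin-binding adaptor, and Dab2, an endocytic adaptor, did not pass at 0.96 ± 0.23 and 0.45 ± 0.22.

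Of 17 receptor-proximal adaptors and kinases, 3 were higher and 3 lower (17.6% each way), beside 12.9% and 11.3% of all genes tested. Vav3, an exchange factor for small GTPases, rose by 2.69 ± 0.22 on the log2 scale, and the adaptor Shc2 rose by 1.37 ± 0.21. Plcg2, a phospholipase C gene, fell from a mean of 177.9 to 20.2 CPM, and the adaptor Shb fell from 29.1 to 3.16 CPM. The remaining calls, named after their values were seen, were Pxn (1.41 ± 0.27) and Gab1 (-1.05 ± 0.22). Plcg1, whose phospholipase acts directly downstream of KDR, did not pass at 0.74 (edgeR adjusted p = 0.0495) and was also named after its value was seen. Of 9 ERK branch genes, Prkca rose by 2.56 ± 0.31, while Prkcb fell by 4.38 and Pla2g4a fell by 1.97 on the log2 scale. Mapk3, which encodes ERK1, did not pass at 0.37 ± 0.20.

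In the PI3K, AKT and nitric oxide branch 4 of 8 genes rose (50%), beside 12.9% of all genes tested. Nos3, which encodes endothelial nitric oxide synthase, rose by 2.74 ± 0.37 on the log2 scale, Pik3r1 by 1.65 ± 0.27 and Akt1 by 1.53 ± 0.24. In the p38 and cytoskeleton branch 1 of 6 rose (16.7%), a share near that of all genes tested. It was the kinase gene Mapkapk2, by 1.96 ± 0.23, while Hspb1 (-1.02 ± 0.29), Limk1 (-0.84 ± 0.29) and Mapk14 (0.54 ± 0.19) did not pass. In the calcineurin and NFAT branch 3 of 7 rose (42.9%). Nfatc1, a factor of endocardial and valve development, rose by 4.94 ± 0.43, Nfatc4 by 1.61 ± 0.26 and Ppp3ca, a calcineurin subunit gene, by 1.48 ± 0.25. Ppp3cb did not pass at 0.49 ± 0.25.

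**Figure D4:**
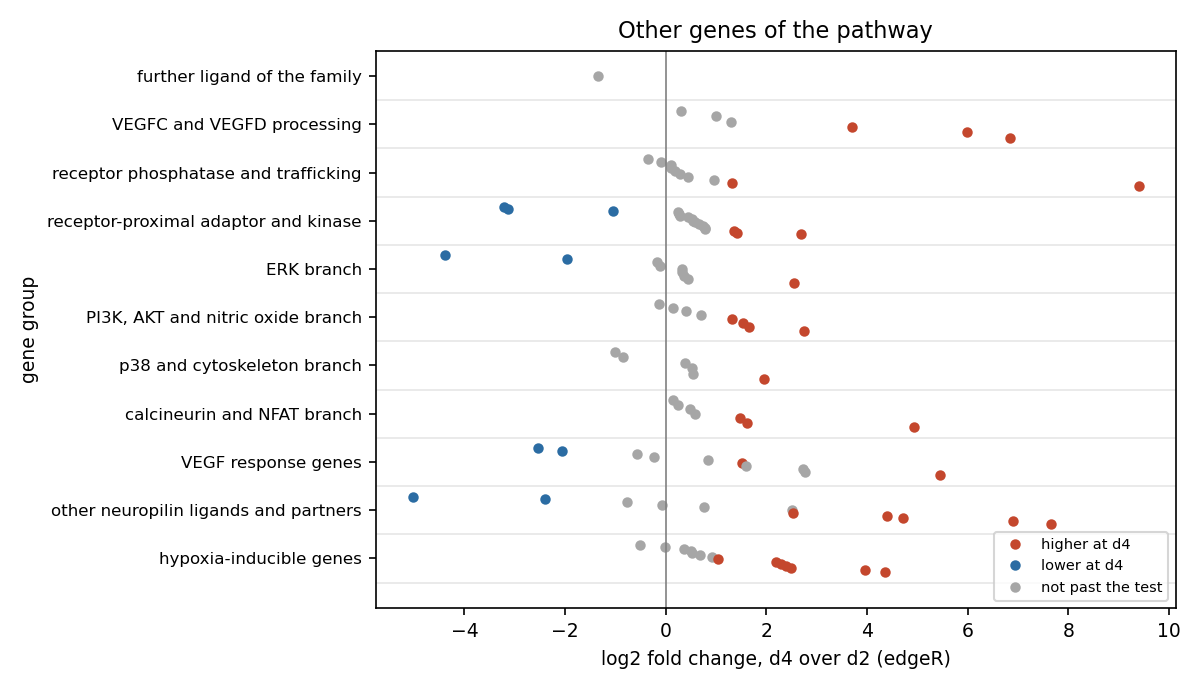
Each point is 1 gene tested, at its edgeR log2 fold change of d4 over d2 on the x axis and in its group on the y axis; red is higher at d4, blue is lower and grey is not past the test. Calls fall on both sides of 0 in the groups of proximal adaptors, the ERK branch, VEGF response genes and neuropilin partners, and on the right alone in the 6 other groups that have any call.

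Of 16 genes known to respond to VEGF in endothelial cells, 10 were tested, and 2 were higher and 2 lower, or 20% each way beside 12.9% and 11.3% of all genes tested. Their median log2 fold change was 1.17. Hlx was counted 2 and 1 times at d2, against 58 and 105 times at d4, a ratio of 47.9 with an exact 95% counting interval of 16.1 to 235, and Adamts1 rose by 1.51 ± 0.24 on the log2 scale. F3, the tissue factor gene, fell by 2.53 and the early response gene Egr1 fell by 2.07. Dll4 (2.77, edgeR adjusted p = 0.01003), Egr3 (2.73, 0.0171), Plaur (1.59, 0.0291) and Rcan1 (0.84, 0.0162), named after their values were seen, had positive log2 fold changes that missed the threshold of 0.01 and would pass one of 0.05. The untested genes, with at most 8 counts in a library, were Egr2, Nr4a3, Esm1, Angpt2, Apold1 and Ptgs2. All d4 libraries here were from medium with VEGF, so these values do not isolate a response to it.

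Semaphorins and plexins, with which neuropilins also act, included 5 genes higher (45.5%) and 2 lower (18.2%) of 11 tested. Over all genes tested, 12.9% were higher and 11.3% lower. Plxna2 rose by 4.40 ± 0.25 on the log2 scale, Plxnd1, an endothelial semaphorin receptor gene, by 4.72 ± 0.37, and Plxna4 by 7.65 ± 0.63 from 4 and 0 counts at d2. Sema3c, a class 3 semaphorin gene, fell by 5.03. The others, named after their values were seen, were Sema3f (2.52 ± 0.35), Sema3a (6.90 ± 0.82) and Sema3e (-2.39 ± 0.38). Sema3a was counted 1 and 3 times at d2, against 112 and 510 times at d4.

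Hypoxia-inducible genes were listed because Vegfa and Flt1 are known among them, together with genes for subunits or regulators of hypoxia-inducible factors (HIF). Of 14 tested, 7 rose (50%) and 0 fell, beside 12.9% higher and 11.3% lower of all genes tested. These were 2 of 5 subunit or regulator genes and 5 of 9 HIF targets tested. The median log2 fold change of the list was 0.98. Epas1, which encodes HIF-2alpha, rose by 4.35 ± 0.35, Ndrg1 by 3.97 ± 0.39, and the HIF hydroxylase genes Egln1 and Egln3 by 2.39 ± 0.26 and 2.29 ± 0.23. Hif1a and the glucose transporter gene Slc2a1, named after their values were seen, did not pass at -0.50 (edgeR adjusted p = 0.332) and 0.51 (edgeR adjusted p = 0.105).

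Markers of several cell types moved with the family, beside 12.9% higher and 11.3% lower of all genes tested. Of 15 endothelial markers tested, 11 rose, and the summed level of the 16 listed was 43.7 to 50.0 CPM at d2 and 686 to 892 CPM at d4. Emcn was not counted in either d2 library and was counted 2 and 3 times at d4, and Cldn5, Eng, Cd34 and Robo4 did not pass. All 10 primitive blood markers rose, from a sum of 6.83 to 8.01 CPM to 373 to 534 CPM, and 9 of 10 mesoderm markers did, from 16.5 to 20.4 CPM to 1181 to 1321 CPM. Of 8 pluripotency markers 6 fell, from a sum of 999 to 1303 CPM to 33.3 to 33.7 CPM, and Utf1 was at 0 at d4. Smooth muscle and mural markers, 3 of 5 higher and 1 lower, summed to 29.5 to 33.1 CPM at d2 and to 290 to 307 CPM at d4. Cardiomyocyte markers summed to 19.2 to 33.4 CPM over all libraries with 1 of 4 higher, 2 lower and Nppa at 0 throughout, visceral endoderm markers summed to 2.05 to 3.27 CPM at d2 and to 7.12 to 13.3 CPM at d4, where the 1 gene of 3 called higher, Sox17, is also among the endothelial markers, and neural markers fell in 4 of 4 tested, from 167 to 197 CPM to 60.4 to 70.0 CPM. The level of Kdr per kilobase of merged exons was 2.06 and 2.40 times that of Cdh5 in the d4 libraries. With the longest transcript as length, it was 2.98 and 3.48 times that of Cdh5. The part of each cell type in the differences of the VEGF family was not tested.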

How the data were processed

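RNA-seq of differentiating E14-Tg2a mESCs was analysed in 4 libraries, 2 each at d2 and d4. Per the paper's methods, strand-specific paired-end reads were trimmed with cutadapt, aligned to mm10/GRCm38 with STAR and counted per gene with featureCounts, without reads that map to or overlap more than 1 feature. The authors deposited raw counts, 1 column per library. The methods name both a GENCODE and an Ensembl annotation, so positions, lengths and symbols, taken here from GENCODE M21 of GRCm38 for 55227 of 55487 genes, may differ slightly from theirs.

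Genes were kept where a day's counts exceeded 0.5 CPM by a one-sided proportion test (adjusted p under 0.05). R 4.3.3 and edgeR 4.0.16 were used with TMM factors, glmQLFit and glmQLFTest on day alone, two-sided, at an adjusted p under 0.01. Adjusted p-values are edgeR's over all 14932 genes, and standard errors come from the coefficient and the F statistic. CPM are TMM-normalized. DESeq2 1.42.0 and limma voom 3.58.1 were alternatives, with other factors and filters, thinning, a replicate block and each library left out. Removal of the GC trend, of mitochondrial genes from totals, and DESeq2 with libraries left out were chosen after seeing the data.

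Members and lists were chosen with earlier results of these data known. Named genes were all members, Vegfd, the 4 genes (fewer in short groups) of lowest adjusted p in every pathway group or further list, and the 3 nearest genes by pattern, from genes above 0 in every library; other names are marked, and some genes under this rule are not reported here. With 2 libraries a day, p-values set each difference against a spread estimated over genes, from these samples alone. ATAC-seq was not analysed here.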

Additional observations from a re-analysis of the deposited data

How the results depend on the processing

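The sign of all 9 members' log2 fold changes was the same in 171 of 171 alternative values, and the call was the same in 157. The 14 that lost it were the 7 called members in edgeR without d2 replicate 1 and without d2 replicate 2. With each library left out of edgeR, 0 to 7 members and 0 to 19 pathway genes were higher and 0 to 5 pathway genes lower; without d2 replicate 1 and without d2 replicate 2, DESeq2 called 13 and 10 pathway genes higher and 3 and 3 lower. In those fits the lone library of a day is assumed to vary like the others. The log2 fold changes in edgeR then ranged from 4.02 to 4.34 for Vegfa, 5.23 to 5.90 for Vegfc, 9.42 to 9.79 for Kdr, 3.41 to 3.61 for Flt1, 2.23 to 2.93 for Flt4, 10.44 to 11.21 for Nrp1 and 4.26 to 4.61 for Nrp2. For Vegfb they ranged from 0.20 to 0.84, and for Pgf from 0.70 to 1.19.

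The replicate numbers are shared by the days, but with 2 pairs and no label for what a number marks they were not taken as pairs, although the deviations of same-numbered libraries had a correlation of 0.482 over genes. If same-numbered libraries came from the same differentiation experiment, the main fit on day alone left out that pairing. With the replicate block, 7 members were higher (all 9 at an adjusted p under 0.05, and 7 with the GC trend removed as well) and 25 pathway genes were higher and 8 lower, beside 17 and 5, and over all genes 3478 were higher and 3496 lower, beside 1933 and 1694. With the GC trend removed, 21 pathway genes were higher and 8 lower, and 2685 genes were higher and 2649 lower. Without the filter, 2901 genes were higher and 2873 lower; of the members 7 were called. The cause of these shifts was not tested. The upper-quartile scaling moved the median of all genes to -0.11, and the same 7 of 9 members were called. With transcript lengths in place of merged exons, the receptor shares at d2 were 64.6% for Flt1 and 31.6% for Flt4, and at d4 76.1% for Kdr and 19.1% for Flt1, and Vegfc held 15.8% of the ligands at d4. Depth limits Nrp1 at d2 most, at 3 reads.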
